A study of Solanum lycopersicum with 6 samples.

Results

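In tomato leaf, 93 of 35768 gene models carried many footprints of elongating ribosomes but little or no mRNA. They were chosen on their measured values. Each model had at least 2 CPM (counts per 1000000 of the library total) in both libraries of elongating footprints. Its mean level there was at least 8 times the mean mRNA level. Its mean level in the LTM libraries, aimed at initiating ribosomes, was at most 4 times the mean level of elongating footprints. Where fewer than 3 mRNA counts were found over both mRNA libraries, 3 counts were used, which is 0.0544 CPM. Of the 12043 models that met the footprint minimum, 97 (0.805%) also met the 8-fold limit, and 4 of these lay above the LTM limit. The footprint and mRNA levels, and the ratios between kinds of library, are therefore given as descriptions without tests.

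A ribosome that translates an mRNA shields a short stretch of it from nuclease. Ribosome profiling sequences these stretches, called footprints, and total RNA from the same extract shows how much transcript is present. The ratio of footprints to mRNA is used as a measure of translational efficiency. Footprints are short, so those from near-identical gene copies can be hard to assign to a single copy. Cycloheximide holds ribosomes in place during elongation. Inhibitors that hold ribosomes at the start codon are used to mark where translation begins, and puromycin ends the growing protein chain and so frees elongating ribosomes.

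The study sought translation start sites in tomato (Solanum lycopersicum) leaf and measured mRNA alongside. It holds 6 libraries of 3 kinds with 2 replicates each, all from true leaves of plants grown at 28 °C with 12 h of light; the tissue field gives 3 weeks of age and the treatment field 2 weeks. The CHX libraries hold footprints of 26 to 32 nt from extracts with 100 µg/ml cycloheximide, the LTM libraries hold footprints from leaves treated with LTM whose extracts then received puromycin, and the mRNA libraries hold rRNA-depleted RNA from aliquots of the CHX extract. No genotype or cultivar is given in the labels, and LTM is not spelled out there. Library totals ran from 18240140 (LTM replicate 1) to 48704200 counts (CHX replicate 1). For mRNA, reads over the transcript region had been counted, and for footprints those over the coding region. The labels do not say whether replicates came from separate plants, so SDs describe the spread between libraries, which may be technical. The table gives identifiers without gene names, so no role can be assigned to a model, and leaf marker genes could not be checked by name. In bulk leaf, fewer cells with a transcript and less transcript per cell cannot be told apart.

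The ratio of mean CHX to mean mRNA had a median of 42.3 over the 93 members, against 1.15 over the 12043 models with at least 2 CPM in both CHX libraries. It lay from 8 to 16 in 30 members, from 16 to 64 in another 30, and at 64 or more in 33. In all 93 members both CHX values were above both mRNA values, and in 72 the lower CHX value was at least 8 times the higher mRNA value. The choice of members sets the direction of these counts, and only 0.805% of the 12043 models reached the 8-fold limit at all. Most members were modest in footprints: 57 had a mean under 10 CPM in CHX, 30 had 10 to 100 CPM and 6 had more. The scarcest member still had 207 CHX counts over both replicates. Together the members took 0.212% and 0.522% of the CHX libraries, 0.172% and 0.661% of the LTM libraries, and 0.0121% and 0.0193% of the mRNA libraries, in replicates 1 and 2.

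**Figure D1:**
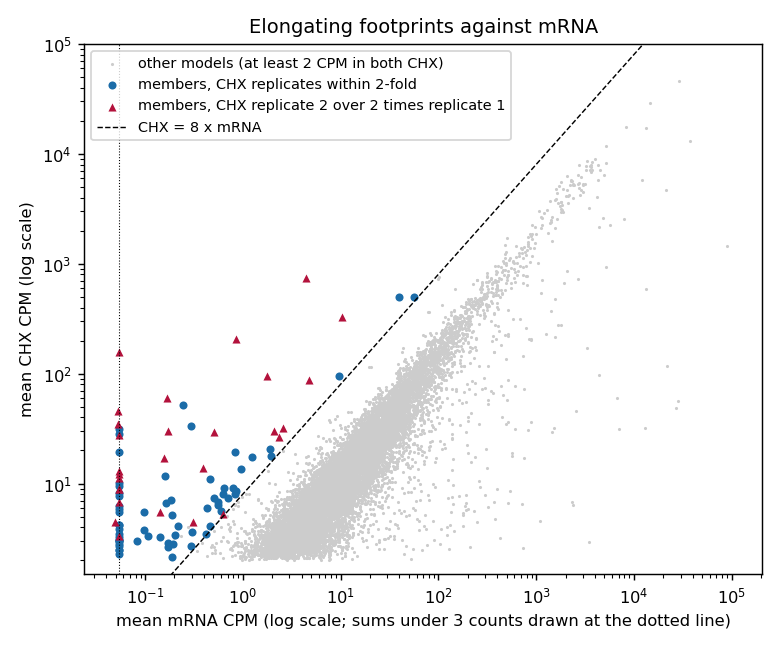
Mean CHX CPM against mean mRNA CPM, both on log scales, for the 93 members (coloured) and the other 11950 models with at least 2 CPM in both CHX libraries (grey); the dashed line marks the 8-fold limit and the dotted line the level of 3 mRNA counts. The bulk of grey points lies well below the dashed line, and 33 members with fewer than 3 mRNA counts stand on the dotted line.

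For 33 members the 2 mRNA libraries held fewer than 3 counts in sum, and for 15 of these no count at all. Only 34 of the 12043 models had so few mRNA counts, and the one that is no member lay above the limit on LTM. The rule sets this outcome. With mRNA at 0.0544 CPM, any model with 2 CPM in both CHX libraries passes the 8-fold limit. At the other end, 46 members had 10 or more mRNA counts, so for these the low mRNA level rests on counted reads rather than on a limit. The mean mRNA level of the members had a median of 0.170 CPM and reached 56.7 CPM.

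The 4 members with the highest mean CHX level came in contrasting forms. Solyc11g021170.1.1 had 92.4 and 1398 CPM in CHX replicates 1 and 2, 75.2 and 1893 CPM in LTM, and 1.85 and 7.11 CPM in mRNA. Its CHX mean of 745 CPM (SD 924, n = 2) was thus set almost entirely by replicate 2, but its ratio to mRNA was 49.8 within replicate 1 and 197 within replicate 2. Solyc08g061160.2.1 had 212 and 443 CPM in CHX, 305 and 852 CPM in LTM, and 0.363 and 20.1 CPM in mRNA. Here the mRNA replicates were 55.5-fold apart, further than the footprint replicates, and the ratio was 584 within replicate 1 and 22.0 within replicate 2.

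Solyc03g005775.1.1 and Solyc03g005790.2.1 had identical counts in all 4 footprint libraries, at 484 and 515 CPM in CHX and 237 and 343 CPM in LTM. Their mRNA differed, at 33.1 and 46.1 CPM in the former and 49.3 and 64.1 CPM in the latter, which made them the members with most mRNA. CHX stood 12.6 and 8.81 times above mRNA in them. No other member shared all its footprint counts with another model of the table. The footprint values of this pair are uncertain as values of either model, because no label or header says how reads with several matches were counted, and they count as 1 source of footprints.

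Among members whose CHX replicates were within 2-fold, the largest ratios belonged to models at or near 0 counts of mRNA. Solyc10g054350.1.1 had 27.6 and 34.9 CPM in CHX, 17.6 and 18.9 CPM in LTM and no mRNA count. Against 3 counts over both mRNA libraries it was at least 575-fold higher in CHX. Solyc07g032610.1.1 had 22.8 and 16.1 CPM in CHX, 11.2 and 11.5 CPM in LTM and no mRNA count, and was at least 358-fold higher in CHX. Solyc00g005900.2.1 had 20.2 and 36.3 CPM in CHX, 12.8 and 21.7 CPM in LTM and 1 mRNA count, a ratio of pooled counts of 1554 (95% exact binomial interval 279 to 61396). Such limits and intervals cover counting error only. Solyc01g100640.3.1 had 51.7 and 53.0 CPM in CHX and 31.5 and 26.8 CPM in LTM, against 0.161 and 0.329 CPM in mRNA from 14 counts, a ratio of 213. In 3 of these 4 models both CHX libraries lay above both LTM libraries, and in Solyc00g005900.2.1 the CHX and LTM libraries overlapped.

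**Figure D2:**
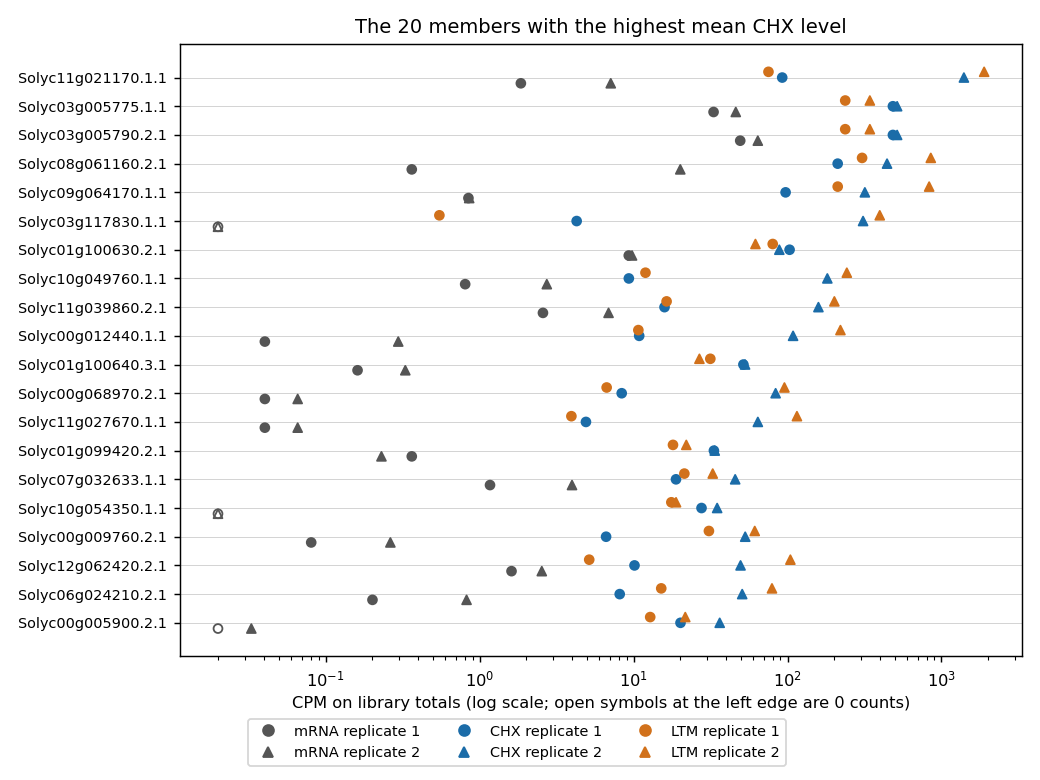
CPM on a log scale in each of the 6 libraries for the 20 members with the highest mean CHX level, with circles for replicate 1 and triangles for replicate 2; open symbols at the left edge are 0 counts. The mRNA values lie left of all footprint values in each model, and in 13 of the 20 models the CHX triangle lies more than 2-fold to the right of the CHX circle.

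At the 8-fold limit the values ran on without a gap. Just inside it, Solyc07g042840.1.1 had a ratio of 8.26, with 2.94 and 3.99 CPM in CHX and 0.443 and 0.395 CPM in mRNA, and Solyc02g011877.1.1 had 8.41. Just outside it, Solyc06g076090.3.1 had 7.79 and Solyc07g056460.3.1 had 7.72. At the limit on LTM, Solyc10g011920.2.1 lay inside with LTM at 3.80 times CHX, and Solyc11g044620.1.1 lay outside at 4.19.

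The CHX replicates of the members agreed less often than those of other models, and always with the same replicate on the higher side. CHX replicate 2 was more than 2 times replicate 1 in 28 of 93 members (30.1%), against 0.839% of the 12043 models, and replicate 1 was more than 2 times replicate 2 in 0 members, against 0.299%. The 28 members were 27.7% of the 101 models with such a difference. With a 5-fold limit there were 12 members (12.9%) among 22 models, a background of 0.183%. The rule needs 2 CPM in each CHX library and takes the mean of both, so a model can pass on 1 high library. Among the non-members with that minimum, CHX replicate 2 was over 2 times replicate 1 in 73, and the reverse held in 36. Whether the choice of members made part of the imbalance, or its direction, was not tested. Of the 20 members with the highest mean CHX level, 13 had CHX replicate 2 more than 2 times replicate 1. Of the 20 highest in CHX replicate 1 alone, 5 did. The other 65 members agreed within 2-fold.

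The same members were also higher in LTM replicate 2. All 28 had more LTM CPM in replicate 2 than in replicate 1, and 22 had more than 2 times as much, whereas of the 65 agreeing members 8 did and 1 had the reverse. Over all members 30 had LTM replicate 2 more than 2 times replicate 1 (1.54% of the 12043 models), and 1 the reverse (0.747%). Summed over the 28 members, CPM in replicates 1 and 2 was 562 and 3540 in CHX, 776 and 5430 in LTM, and 12.9 and 50.6 in mRNA. In mRNA, 21 of the 28 were higher in replicate 2 and 2 in replicate 1. Some of these differences rest on very few counts, such as 0 and 1 in Solyc12g014485.1.1 and 1 and 2 in Solyc00g068970.2.1. The share of all models with more mRNA in replicate 2 is not given here, so nothing is read from the count. Without Solyc08g061160.2.1, which held the most mRNA of the 28, the mRNA sums were 12.6 and 30.5 CPM. Over the 65 agreeing members the sums were 1561 and 1678 CPM in CHX, 941 and 1177 in LTM, and 108 and 142 in mRNA. Most of each of these sums came from Solyc03g005775.1.1 and Solyc03g005790.2.1, whose identical footprint counts enter once for each model. Each of them added 484 and 515 CPM in CHX and 237 and 343 CPM in LTM, so the sums say little about the other agreeing members. Aliquots of CHX extracts gave the mRNA libraries, but the labels do not say that equal replicate numbers mark the same extract, and they tie the numbers of the LTM libraries to no other kind. What CHX and LTM replicate 2 have in common was not tested.

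**Figure D3:**
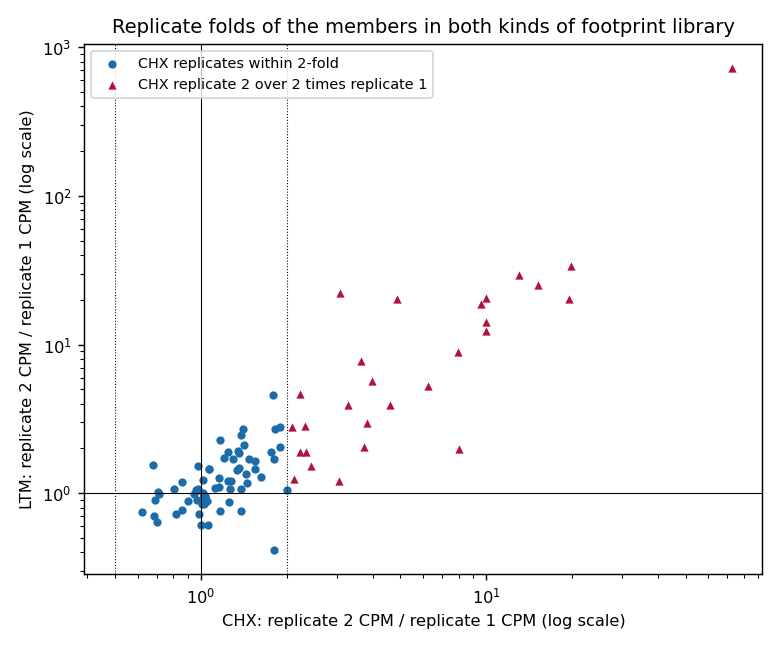
Replicate 2 over replicate 1 in CHX (x axis) and in LTM (y axis), both on log scales, for the 93 members; dotted lines mark 2-fold in CHX. The 28 triangles right of the dotted line all lie above 1 on the LTM axis.

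Across the 93 members, the log2 replicate folds of CHX and LTM had a Pearson's r of 0.899 and a Spearman's rho of 0.814. Across 12042 models with footprints in all 4 libraries Pearson's r was 0.430. The sets differ in range, with CHX replicates within 2-fold in 69.9% of members and 99.1% of the other models. A wider range raises r, so the values do not compare how closely CHX and LTM folds go together. These correlations are descriptions across models, which share their libraries and are not independent. In addition, 1 pair of members shares its footprint counts. Solyc03g117830.1.1 showed the largest difference, with 4.27 and 310 CPM in CHX, 0.548 and 397 CPM in LTM, and 0 counts in mRNA. CHX replicate 1 alone put it 35.3 times above the limit of 3 counts in mRNA replicate 1. Solyc12g014485.1.1 had 2.65 and 52.6 CPM in CHX, 1.97 and 67.0 CPM in LTM, and 1 mRNA count, for a ratio of pooled counts of 1512 (95% exact binomial interval 271 to 59725) and a ratio of 508 with mRNA at the limit of 3 counts. Without CHX replicate 2 the log2 ratio of CHX to mRNA, with mRNA at that limit, went from 8.99 to 5.61 in Solyc12g014485.1.1 and from 11.50 to 6.30 in Solyc03g117830.1.1. Among the 12 members with more than 5-fold in CHX, the CHX fold ran from 6.25 to 72.5 and the LTM fold from 1.98 to 725, with 11 of 12 above 5-fold in LTM too.

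The ratio was also read within each replicate number. Within the replicate 1 libraries alone 25 of the 28 had CHX at least 8 times mRNA, but in 19 of them mRNA was so low that the minimum of 2 CPM in CHX already put them there; of the other 9 models 6 reached it. Within replicate 2 alone 27 of the 28 did, 14 of them by that minimum. Among the 65 agreeing members 61 did in replicate 1, 43 of them by the minimum, and 62 in replicate 2, 38 of them by the minimum. These counts use the values that chose the members and show nothing beyond the choice. When the whole rule was applied to the 3 replicate 1 libraries alone it chose 98 models, and to the replicate 2 libraries alone 121; 79 were chosen by both, which is 80.6% of the former and 65.3% of the latter. Read in libraries that had not chosen them, the 98 models had a median CHX to mRNA ratio of 24.9 in replicate 2, from 0.868 to 3134, and 80 reached 8. The 121 chosen by replicate 2 had a median of 18.3 in replicate 1, from 0.509 to 583.8, and 97 reached 8. Over both replicates 0.805% of the 12043 models reached 8, and the share within 1 replicate is not given here. How many of the 80 and 97 reached 8 through very low mRNA alone is not given either. With 1 library of each kind on each side these are values without a test.

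LTM footprints were present on nearly all members, but a smaller share of them reached a set level than of all models. LTM reached at least 2 CPM in both libraries in 71 of 93 members (76.3%) and at least 1 CPM in 89 (95.7%). Over the 12043 models these shares were 96.7% and 99.6%. LTM footprints were counted over the coding region, so the counts do not show footprints at start codons. Both LTM libraries lay above both mRNA libraries in all 93 members, against 51.5% of the 12043 models, and mean LTM was at least 8 times mean mRNA in 79 members, against 3.21%. The low mRNA that chose the members enters these counts, while the LTM libraries came from other, LTM-treated leaves and had only an upper limit in the rule. The lowest LTM to mRNA ratio of a member was 4.90 and the median 28.1.

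Relative to CHX, LTM was on the low side in members whose replicates agreed. The median log2 ratio of LTM to CHX was -0.34 over the 93 members, -0.55 over the 65 agreeing ones, and 0.03 over the 12043 models. With TMM scaling, which moved the ratios of all these models by a median of -0.29, the medians were -0.61, -0.84 and -0.26. Mean LTM was above mean CHX in 29 of 93 members (31.2%), against 52.3% of the 12043 models. With TMM these shares were 24.7% and 34.0%. Among the 28 members higher in CHX replicate 2 LTM was above CHX in 18, and among the 65 agreeing members in 11. LTM was under 0.5 times CHX in 11 members (11.8%, background 2.37%) and over 2 times CHX in 5 (5.38%, background 12.4%), a side that the upper limit of the rule reduces. Both LTM libraries lay below both CHX libraries in 38 members (40.9%, background 32.0%) and above both in 5 (5.38%, background 37.2%). The rule chose members for high CHX, which lowers this ratio, and no statement on initiation is drawn from these shares.

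Single models show the range of LTM against CHX. Solyc10g011920.2.1 had 33.6 and 35.1 CPM in LTM against 6.04 and 12.1 CPM in CHX, and 0.202 and 1.09 CPM in mRNA. Solyc04g025530.3.1 had 16.5 and 16.4 CPM in LTM against 8.99 and 9.17 CPM in CHX, with 0.363 and 1.22 CPM in mRNA. In both, the LTM and CHX libraries did not overlap. At the other extreme, Solyc12g062900.1.1 had 1.75 and 3.03 CPM in LTM against 7.00 and 8.40 CPM in CHX, a ratio of 0.310, and 1 mRNA count. Solyc09g082700.2.1 had 3.40 and 2.08 CPM in LTM against 6.63 and 7.00 CPM in CHX, a ratio of 0.402, and 0.524 and 0.593 CPM in mRNA.

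The identifiers carry the chromosome and a number that runs along it, which gives an order of loci without coordinates. Under chromosome 0, which collects sequence not placed on a chromosome, the number gives no known order along a chromosome. Some members lay near each other in that order. Counting each model of the table as 1 place, 6 members stood directly beside another member, 24 (25.8%) had one within 5 places and 35 (37.6%) within 10. Of the other 11950 models with at least 2 CPM in both CHX libraries, 0.444%, 1.83% and 3.40% had a member at these distances. The 35 members include models under chromosome 0, such as Solyc00g005440.2.1 and Solyc00g005900.2.1, which are near by number alone. The 24 members include no model under chromosome 0. The 24 members formed 11 groups, 9 of 2 and 2 of 3 members, and 21 of the 24 were members whose CHX replicates agreed. These counts include Solyc03g005775.1.1 and Solyc03g005790.2.1 as a group of 2, although their identical footprint counts are 1 source of footprints. The other 69 members had no member within 5 places.

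The 6 direct neighbours formed 3 pairs. Solyc01g100630.2.1 had 103 and 88.5 CPM in CHX, 80.2 and 61.9 CPM in LTM, and 9.31 and 9.78 CPM in mRNA. It stands beside Solyc01g100640.3.1, described above, and next to that lies Solyc01g100650.3.1, no member, with 247 and 226 CPM in CHX and 117 and 137 CPM in mRNA. Solyc05g014480.3.1 had 3.33 and 10.2 CPM in CHX and 2 mRNA counts, a pooled ratio of 185 (95% exact binomial interval 51.1 to 1535), and Solyc05g014485.1.1 had 3.43 and 4.74 CPM in CHX and 0.202 and 0.230 CPM in mRNA. The model before them, Solyc05g014470.3.1, no member, had 1077 and 1203 CPM in CHX and 465 and 605 CPM in mRNA. Solyc09g082695.1.1 had 2.87 and 2.88 CPM in CHX and 0.242 and 0.099 CPM in mRNA, beside Solyc09g082700.2.1 described above.

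Other groups, picked here after their values were seen, alternated with models that are no members. Solyc03g005775.1.1 lies between Solyc03g005770.3.1, with 6250 and 6144 CPM in CHX and 2845 and 2983 CPM in mRNA, and Solyc03g005780.3.1, with 5830 and 5767 CPM in CHX and 2255 and 2312 CPM in mRNA, and Solyc03g005790.2.1 follows directly. In both of these non-members mRNA and footprints were high together. Solyc07g032610.1.1, Solyc07g032620.2.1 and Solyc07g032633.1.1 stand at every other place in front of Solyc07g032640.2.1, which had 3970 and 3993 CPM in CHX and 2359 and 2456 CPM in mRNA. The first and second had 0 mRNA counts, the third had 1.17 and 3.98 CPM, and the models between them had 0 counts in all 6 libraries. Solyc07g056430.3.1, Solyc07g056450.3.1 and Solyc07g056470.3.1 likewise take every other place; the models between them, Solyc07g056440.3.1 and Solyc07g056460.3.1, had CHX at 6.91 and 7.72 times mRNA, just short of the limit.

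**Figure D4:**
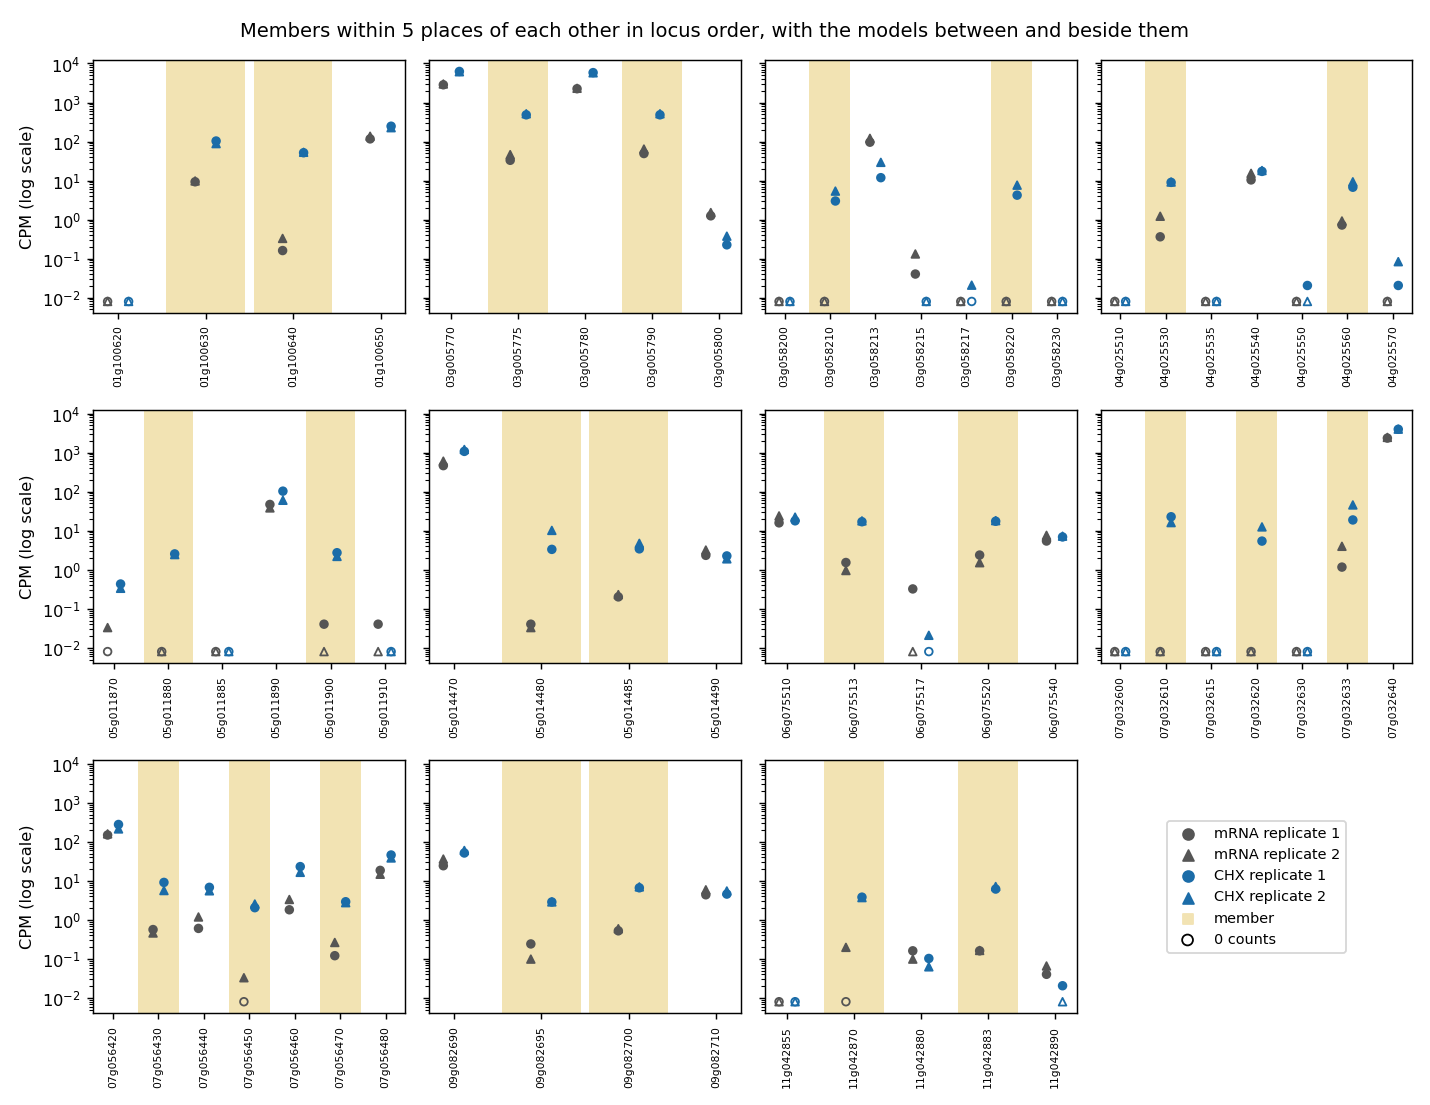
CPM on a log scale in the mRNA (grey) and CHX (blue) libraries for the 11 groups of members within 5 places of each other, with the models between and beside them in locus order; shading marks members, circles replicate 1, triangles replicate 2 and open symbols 0 counts. Members show a wide gap between blue and grey, while most unshaded models have no counts or a smaller gap; the widest gaps of unshaded models with at least 2 CPM in both CHX libraries are those of Solyc07g056440.3.1 and Solyc07g056460.3.1, at 6.91 and 7.72.

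Neighbours with much mRNA were looked at as well. A model with at least 100 CPM of mRNA stood within 5 places of 30 members (32.3%), against 22.4% of the 12043 models, a measure chosen after the values were seen. A model with more mRNA than the member itself had CHX stood within 5 places of 74 members (79.6%), against 74.9% of the 12043 models. The median of the highest mRNA level within 5 places was 40.1 CPM for members and 37.9 CPM for the 12043 models. Whether footprints of a neighbour or a similar gene elsewhere were counted on members was not tested.

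The identifiers themselves hold further features that the rule did not use. Identifiers under chromosome 0, which in tomato gene numbering collects sequence not placed on a chromosome, made up 7 of 93 members (7.53%) and 0.639% of the 12043 models. Of all 35768 models at least 812 were under chromosome 0, the place of Solyc00g282510.2.1 in its order, so their share there was well above 0.639%. The exact share over all 35768 models is not given here, so nothing is read from the 7.53%. Of the 7 members, 5 were among the 28 higher in CHX replicate 2. Version 1 of a model, the digit after the first point, was borne by 39 members (41.9%), against 12.0% of the 12043 models and 36.1% of all 35768. Version 3 was borne by 24 members (25.8%), against 66.8% and 40.2%. Locus numbers that are not multiples of 10, which are given to models inserted between earlier ones, were found in 15 members (16.1%), against 4.23% and 13.7%. In version and in locus number the shares of the members thus lay nearer to those of the whole table than to those of the 12043 models. Every one of the 12 chromosomes held members, from 3 on chromosomes 6 and 8 to 11 on chromosomes 3 and 9.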

How the data were processed

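Gene-level data from 6 libraries of tomato leaf were used. The values are raw counts per gene model, deposited by the authors, per the file headers from the transcript region (mRNA libraries) or the coding region (footprint libraries). Not given in the sources used here are the read aligner, the counter, the build and release of the genome annotation, and how multiply matching reads were treated. Groups and replicate numbers came from the sample titles.

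CPM was taken on library totals (Python 3.11.15, pandas 2.3.3). TMM and upper-quartile factors (edgeR 4.0.16) and median-of-ratios factors (DESeq2 1.42.0) served as alternatives. The members and the measures were chosen with earlier results of these data known. The rule uses all 6 libraries and the ratios of CHX to mRNA and of LTM to CHX, so no test was made. Shares are set beside those of all 12043 models with at least 2 CPM in both CHX libraries. The selection was tested on simulated data with known changes.

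Models were named by rule: the 4 with most CHX, the 4 with the largest ratio and agreeing CHX replicates, the extremes in mRNA, LTM to CHX and CHX replicate fold, those at the limits, and direct neighbours in locus order. A RefSeq gene table of tomato (assembly SLM_r2.1, 41476 genes) holds 0 of the identifiers, so names and sequences were not used here. Intervals are exact binomial and cover counting error only.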

Additional observations from a re-analysis of the deposited data

How the results depend on the processing

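No paired analysis was possible because the results come from no test in which the replicate number could stand as a block; ratios within a replicate number are given as values only. The number of members was 99 with TMM, 100 with median-of-ratios and 101 with upper-quartile factors, each including all 93; it was 47 with a minimum of 5 CPM and 142 with a 4-fold limit. Leaving out 1 library gave 77 (without CHX replicate 2) to 126 (without CHX replicate 1). The other settings gave 63 to 130. The median log2 ratio of CHX to mRNA was 5.40, and 4.21 with a limit of 10 counts, 5.75 with 1 count, 4.97 in the 65 members with agreeing CHX replicates and 4.84 to 5.50 with 1 library left out; 3 counts in a single mRNA library stand for a higher level than over both. The median log2 ratio of LTM to CHX was -0.34, and -0.61 with TMM, -0.60 with median-of-ratios and -0.70 with upper-quartile factors, -0.55 in the 65 members, and -0.83 (without LTM replicate 2) to -0.18 (without LTM replicate 1) with 1 library left out. Members beside another member numbered 6, and 24 within 5 and 35 within 10 places. The choice of the 65 members was made after the data were seen. Of 280 alternative ratios of 20 named members, 23 moved by more than the replicate spread. Of the 280, 16 changed sign, all in LTM to CHX and in 7 members; 1 of them moved by more than the spread, Solyc03g117830.1.1, from 0.34 to -8.16 on the log2 scale without LTM replicate 2. Where a setting moved a value, the cause was not tested beyond what its construction shows. Depth leaves only a limit for the 15 members at 0 mRNA counts.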
